A study of Mus musculus with 12 samples.

Results

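The genes described here are 10 components of Nodal and activin signalling. They were taken by name from that pathway with earlier results of these data known, so counts of calls among them may partly reflect that choice. The ligand genes are Nodal, Gdf3 and Inhbb, the co-receptor gene is Tdgf1 and the receptor genes are Acvr1b and Acvr2b. The inhibitor genes are Lefty1, Lefty2, Fst and Smad7. Each gene had 1 probe set among the 19938 genes measured, and all 10 were among the 12988 genes tested. RNA levels were measured on 12 Affymetrix mouse gene arrays, 1 per sample, from R1 mouse embryonic stem cells (ESCs), all grown in serum on mitomycin-treated embryonic fibroblasts. The gene knocked down was Smarcd1, whose product BAF60a belongs to the BAF (SWI/SNF) complexes that remodel chromatin. The undifferentiated groups, kept with leukemia inhibitory factor (LIF), were cells with a scrambled control infection (2 arrays) and the knockdowns labelled KD1 (2 arrays) and KD2 (2 arrays). The differentiated groups were scrambled (2 arrays) and KD1 (4 arrays) cells at 4 days, grown without LIF and with 1 µM retinoic acid, and KD2 cells after retinoic acid were not analysed here. No group was grown without LIF and without retinoic acid, so effects of retinoic acid, of LIF withdrawal and of time cannot be told apart. Changes with retinoic acid below are changes between these 2 conditions. The labels speak of knockdown and control clones, so an effect of Smarcd1 loss and any other difference between clones cannot be told apart. Replicates are labelled as biological, but not whether they came from separate cultures, so the p-values measure the spread among the arrays used, part of which may be technical.

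Nodal and the activins are secreted ligands of the transforming growth factor beta family. They bind a pair of type II and type I receptors, Nodal and Gdf3 with the help of the membrane-anchored co-receptor encoded by Tdgf1 (Cripto), and the receptors phosphorylate Smad2 and Smad3. These enter the nucleus with Smad4 and, at many targets, with the forkhead factor Foxh1. Nodal, Lefty1 and Lefty2 are themselves targets, so the pathway feeds itself forward through its ligand and back through the secreted Lefty inhibitors. The pathway is active in cultured ESCs, and in the embryo it is needed for mesoderm and definitive endoderm.

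Smarcd1 itself had log2 levels of 8.67 and 8.68 on the scrambled ESC arrays and 7.75 and 7.78 on the KD1 ESC arrays. The array labelled KD2 replicate 1 stood at 8.56, close to the scrambled arrays, and KD2 replicate 2 at 7.16. In Smarcd1 the array labelled KD2 replicate 1 therefore goes against its label, and KD2 results are given with and without it. Leaving out 1 KD2 array leaves that group with 1 array and no spread of its own. Calls in such a fit rest on the spread of the other groups. With the array labelled KD2 replicate 1 as the only KD2 array, the log2 change of Smarcd1 from scrambled ESCs was -0.11. In that fit Lefty1 stood at -2.865, Lefty2 at -1.72, Inhbb at 1.91, Smad7 at 0.91, Nodal at -0.71 and Acvr2b at -0.64. Each of these members kept the direction it had with both KD2 arrays. After retinoic acid Smarcd1 was at 8.84 and 8.64 in scrambled cells and between 6.36 and 6.61 in KD1 cells. In limma the Smarcd1 change was called in neither ESC line (-0.91, adjusted p = 0.230 in KD1, and -0.81, adjusted p = 0.152 in KD2). It was called in KD1 ESCs without either KD2 array (adjusted p = 0.00196) and in KD1 cells after retinoic acid (-2.26, adjusted p = 0.000152). The 6 ESC markers measured (Pou5f1, Nanog, Zfp42, Utf1, Dppa5a and Sox2) had array means between 10.56 and 11.36 in undifferentiated cells and between 6.49 and 7.55 after retinoic acid, and the array means of the 5 retinoic acid response markers measured went from between 4.57 and 5.45 to between 8.41 and 8.83, with 5 of the 5 called higher in scrambled and 4 in KD1 cells. Scrambled ESC replicate 1 stood apart from the other undifferentiated arrays in the retinoic acid response gene Cyp26a1, at 8.90 against 3.77 to 4.57. This array lay within the range of the others in Rarb, Hoxb1 and Stra8, and it was lowest in Meis1 (4.58 against 4.82 to 5.18). It also stood apart in targets and inhibitors of Nodal signalling named here after their values were seen, with Cer1 at 6.11 against 3.58 to 3.89, Eomes at 5.96 against 4.22 to 4.65, Lhx1 at 5.16 against 3.72 to 3.96, Gsc at 5.58 against 4.63 to 4.84 and Mixl1 at 5.12 against 4.03 to 4.51. Without this array the Lefty1 change in ESCs was -2.01 in KD1 and -3.45 in KD2. The 9 fibroblast markers measured had array means between 7.01 and 8.90 in all groups, and the share of feeder RNA in the samples was not tested. In such bulk samples fewer cells of a type and less RNA per cell cannot be told apart.

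**Figure D1:**
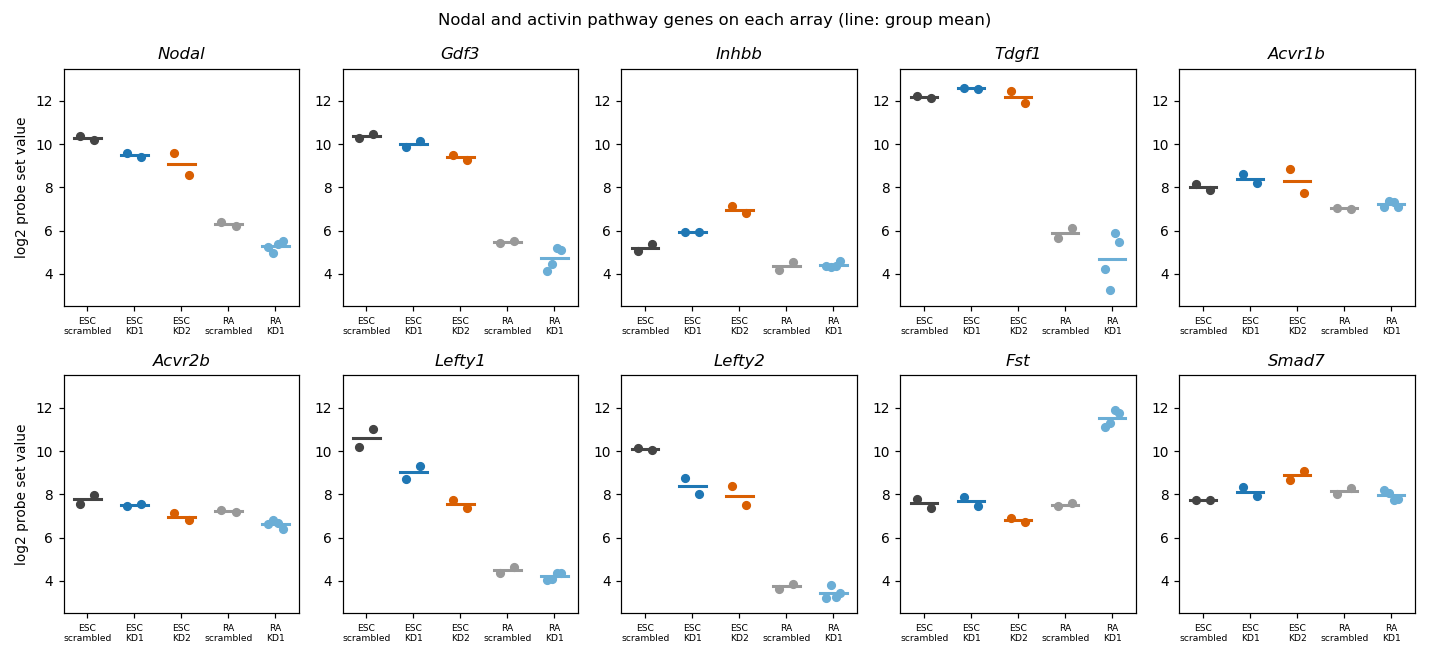
Log2 probe set value (vertical axis) of the 10 Nodal and activin genes on each of the 12 arrays, by group, with the group mean as a line; RA stands for 4 days of retinoic acid. Nodal, Gdf3, Tdgf1, Lefty1 and Lefty2 are high in all 3 undifferentiated groups and low in both retinoic acid groups, whereas Fst lies between 11.12 and 11.88 in the KD1 cells after retinoic acid and between 6.71 and 7.90 elsewhere.

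In undifferentiated cells the transcripts of the secreted inhibitors Lefty1 and Lefty2 fell in both knockdown lines. In KD2 cells Nodal and the receptor gene Acvr2b fell as well, while Inhbb and the inhibitory Smad gene Smad7 rose. Each log2 change is a limma estimate ± its standard error, fitted over all tested genes, with p-values adjusted by the Benjamini-Hochberg method, and a change was called at an adjusted p under 0.05. KD1 and KD2 were compared with the same scrambled arrays, so the comparisons are not independent of each other. Between KD1 and scrambled ESCs 2.32% of all tested genes were called (0.909% higher and 1.41% lower), against 2 of the 10 Nodal and activin genes, both lower. Between KD2 and scrambled ESCs 10.0% of all tested genes were called (2.88% higher and 7.15% lower), against 6 of the 10, of which 2 were higher and 4 lower. The median change of the 10 genes was -0.08 in KD1 and -0.78 in KD2, beside -0.0040 and -0.018 over all tested genes.

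Among the ligand genes, Nodal had log2 levels of 10.36 and 10.21 on the scrambled arrays, 9.59 and 9.40 on the KD1 arrays, and 9.58 and 8.55 on the KD2 arrays. Every knockdown array was lower in Nodal than the scrambled arrays, and KD2 replicate 2 was lowest. The change was -0.80 ± 0.28 in KD1, which did not pass the test (adjusted p = 0.226), and -1.22 ± 0.28 in KD2, which did (adjusted p = 0.0196). Without the array labelled KD2 replicate 1 the fall of Nodal was -1.74, and without KD2 replicate 2 it was -0.71. Gdf3, a ligand related to Nodal that is also known to inhibit bone morphogenetic proteins, stood at 10.28 and 10.49 in scrambled cells, 9.85 and 10.13 in KD1, and 9.51 and 9.28 in KD2. Its groups did not overlap either, but neither the change of -0.39 ± 0.30 in KD1 (adjusted p = 0.705) nor that of -0.99 ± 0.30 in KD2 (adjusted p = 0.0628) passed the test. The Gdf3 change in KD2 reached -1.10 (adjusted p = 0.0389) without the array labelled KD2 replicate 1.

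Inhbb, which encodes the beta B subunit of activin B and inhibin B, stood at 5.04 and 5.38 in scrambled ESCs. Its levels were 5.92 and 5.94 in KD1 and at 7.12 and 6.81 in KD2. The 3 groups formed 3 steps without overlap, lowest in scrambled and highest in KD2 cells. Inhbb rose 3.38-fold in KD2, by 1.76 ± 0.19 on the log2 scale (adjusted p = 0.000374), and by 1.60 (adjusted p = 0.00039) without the array labelled KD2 replicate 1. The KD1 change of 0.72 ± 0.19 did not pass the test (adjusted p = 0.0766). It did pass when either KD2 array or both were left out, at the same size (adjusted p = 0.0192), as did the Nodal change in KD1 (adjusted p = 0.0186).

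The co-receptor gene Tdgf1 had log2 levels of 12.22 and 12.14 in scrambled, 12.59 and 12.56 in KD1, and 12.44 and 11.90 in KD2 cells. The KD1 arrays lay above the scrambled arrays by 0.40 ± 0.64 (adjusted p = 0.916), and the KD2 arrays lay on both sides of them (-0.0048 ± 0.64, adjusted p = 0.998, and -0.27 without the array labelled KD2 replicate 1, adjusted p = 0.825). Acvr1b, which encodes the type I receptor ALK4 of Nodal and activin, stood at 8.15 and 7.88 in scrambled, 8.63 and 8.18 in KD1, and 8.85 and 7.76 in KD2 cells. The KD2 arrays differed from each other by more than either did from the scrambled mean of 8.01, and the Acvr1b change was called in neither line (0.39 ± 0.29, adjusted p = 0.688 in KD1, and 0.29 ± 0.29, adjusted p = 0.605 in KD2). Without the array labelled KD2 replicate 1 the KD2 change of Acvr1b was -0.25, and without KD2 replicate 2 it was 0.84. Acvr2b, which encodes a type II receptor of the same ligands, was at 7.57 and 7.97 in scrambled, 7.46 and 7.57 in KD1, and 7.13 and 6.80 in KD2 cells. The KD2 arrays of Acvr2b were the lowest of the 6, and the fall of -0.80 ± 0.19 in KD2 was called (adjusted p = 0.0220), also without the array labelled KD2 replicate 1 (-0.97, adjusted p = 0.00409). In KD1 the groups overlapped and the Acvr2b change was -0.26 ± 0.19 (adjusted p = 0.686).

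The Lefty genes encode secreted inhibitors that block Nodal signalling outside the cell. Lefty1 had log2 levels of 10.21 and 11.02 in scrambled ESCs, 8.73 and 9.30 in KD1, and 7.75 and 7.39 in KD2. The 3 groups of Lefty1 did not overlap, and KD2 was lowest. Lefty1 fell 3.04-fold in KD1 (-1.60 ± 0.28, adjusted p = 0.0154) and 8.27-fold in KD2 (-3.05 ± 0.28, adjusted p = 0.000156). Leaving out the array labelled KD2 replicate 1 gave a Lefty1 fall of -3.23, and leaving out KD2 replicate 2 gave -2.865. Lefty2 stood at 10.13 and 10.06 in scrambled, 8.77 and 8.0 in KD1, and 8.38 and 7.49 in KD2 cells. All 4 knockdown arrays were below both scrambled arrays, and the ranges of KD1 and KD2 overlapped. Lefty2 fell 3.27-fold in KD1 (-1.71 ± 0.32, adjusted p = 0.0189) and 4.48-fold in KD2 (-2.16 ± 0.32, adjusted p = 0.00199, and -2.61 without the array labelled KD2 replicate 1, adjusted p = 0.000369). Lefty1 and Lefty2 are near-identical neighbours, and their probe sets may not separate them fully.

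The other inhibitors went different ways. Fst encodes follistatin, a secreted protein that binds activins and keeps them from their receptors. Its levels were 7.78 and 7.38 in scrambled, 7.90 and 7.47 in KD1, and 6.92 and 6.71 in KD2 ESCs, so KD1 overlapped with scrambled (0.10 ± 0.26, adjusted p = 0.961) and both KD2 arrays were lower without passing the test (-0.76 ± 0.26, adjusted p = 0.0957, and -0.87 without the array labelled KD2 replicate 1, adjusted p = 0.0528). Smad7 encodes an inhibitory Smad that blocks activated receptors inside the cell. It stood at 7.72 and 7.75 in scrambled, 8.33 and 7.91 in KD1, and 8.65 and 9.09 in KD2 cells. Smad7 was higher on all 4 knockdown arrays than on the scrambled arrays, and it rose 2.20-fold in KD2 (1.14 ± 0.22, adjusted p = 0.00801, and 1.36 without the array labelled KD2 replicate 1, adjusted p = 0.00153), whereas the KD1 change of 0.38 ± 0.22 was not called (adjusted p = 0.543).

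**Figure D2:**
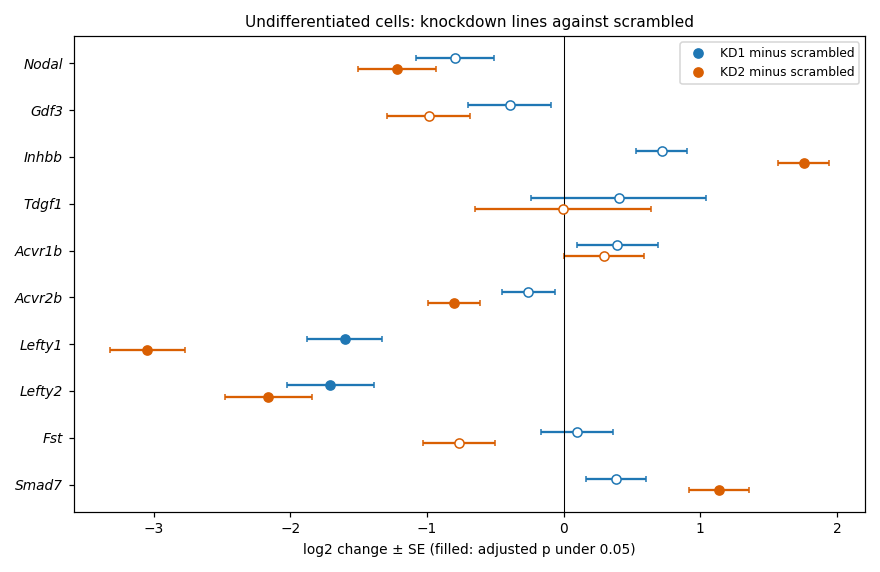
Log2 change ± SE (horizontal axis) of each of the 10 genes in undifferentiated KD1 and KD2 cells against the same scrambled arrays, with filled points for an adjusted p under 0.05. Lefty1 (-1.60 and -3.05) and Lefty2 (-1.71 and -2.16) are filled in both lines, while Inhbb (1.76), Smad7 (1.14), Nodal (-1.22) and Acvr2b (-0.80) are filled in KD2 alone.

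These calls depended on how the spread was estimated. The KD1 call of Lefty1 was lost without scrambled replicate 2 (-1.20, adjusted p = 0.145), without KD1 replicate 1 (-1.32, adjusted p = 0.165) and with the compared arrays fitted alone (adjusted p = 0.0606), and that of Lefty2 was lost when any of the 4 arrays was left out (adjusted p from 0.052 to 0.174) and with only 2 of the retinoic acid KD1 arrays in the fit (adjusted p = 0.0519 and 0.0631). In KD2 none of the 6 calls held when arrays were weighted by their quality or when the 4 compared arrays were fitted alone, where limma called 0 of the 10 genes and 5 and 8 of them had an unadjusted p under 0.05. The KD2 call of Nodal was also lost without scrambled replicate 1 (adjusted p = 0.0952), those of Nodal, Acvr2b and Smad7 without scrambled replicate 2 (adjusted p = 0.097, 0.206 and 0.0642), and those of Nodal and Acvr2b with cyclic loess scaling (adjusted p = 0.0658 and 0.0506). Beside these changes the 9 fibroblast markers had array means of 8.13 and 8.22 in scrambled, 7.91 and 7.01 in KD1, and 7.20 and 7.49 in KD2 cells, with 1 called lower in KD1 and 2 in KD2. The part of the feeder cells in the results was not tested.

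The knockdown lines were also compared with each other, where 2.7% of all tested genes were called (0.508% higher and 2.19% lower in KD2), against 2 of the 10 Nodal and activin genes, 1 in each direction. Inhbb was higher in KD2 than in KD1 by 1.04 ± 0.19 (adjusted p = 0.0192), and Lefty1 was lower by -1.44 ± 0.28 (adjusted p = 0.0224). For the remaining 8 genes the difference was not called, with Smad7 at 0.75 (adjusted p = 0.0991), Fst at -0.86 (adjusted p = 0.116) and Acvr2b at -0.55 (adjusted p = 0.172). Nodal, Lefty2 and Acvr1b overlapped between the lines. Without the array labelled KD2 replicate 1 the Inhbb difference was 0.88 and that of Lefty1 -1.63, and without KD2 replicate 2 they were 1.19 and -1.26. The Inhbb and Lefty1 calls were lost with either KD1 array left out. With array weights or the compared arrays alone limma called 0 of the 10 genes. Of the 10, 2 had an unadjusted p under 0.05 with weights, and 4 with the compared arrays alone. The Lefty1 difference also missed the threshold with cyclic loess (adjusted p = 0.0504), and both did with only 2 of the retinoic acid KD1 arrays in the fit (adjusted p from 0.0567 to 0.0627).

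Of a list of 41 further genes of the pathway, 33 were tested. In KD1 ESCs 1 of the 33 was called, lower, and in KD2 ESCs 1 was called higher and 3 lower. Of all tested genes 2.32% and 10.0% were called, and both counts lay near these shares. The only one called in KD1 was Foxh1, the nuclear partner of the activated Smads. Its levels were 7.21 and 7.57 in scrambled, 6.26 and 6.25 in KD1, and 6.17 and 6.11 in KD2 cells, lower on all 4 knockdown arrays. Foxh1 fell by -1.14 ± 0.22 in KD1 (adjusted p = 0.0227) and by -1.25 ± 0.22 in KD2 (adjusted p = 0.0053). Both Foxh1 calls were lost without scrambled replicate 2 (adjusted p = 0.242 and 0.0687), and that in KD1 also without KD1 replicate 1 or 2 (adjusted p = 0.179 and 0.146). In KD2, Dact2, which lowers the level of Nodal receptors, rose (1.17 ± 0.23, adjusted p = 0.00781), while the follistatin-like gene Fstl3 (-0.70 ± 0.20, adjusted p = 0.0467) and the pseudoreceptor gene Bambi (-0.63 ± 0.18, adjusted p = 0.0467) fell. Without the array labelled KD2 replicate 1, Foxh1 stood at -1.28, Dact2 at 1.30, Bambi at -0.58 and Fstl3 at -0.41. Without KD2 replicate 2, Foxh1 stood at -1.22, Dact2 at 1.04, Bambi at -0.68 and Fstl3 at -0.99. The Bambi and Fstl3 calls were each lost under 16 alternatives, and all 4 were lost with array weights and with the compared arrays alone (Foxh1 0.524 and 0.270, Dact2 0.591 and 0.292). None of the 33 was called between KD2 and KD1, where 2.7% of all tested genes were. The median of the 33 was -0.08 in KD1 and -0.0087 in KD2.

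In scrambled cells 5 of the 10 genes were steeply lower after 4 days with retinoic acid and without LIF. Tdgf1, Lefty1, Lefty2, Gdf3 and Nodal fell by between 3.98 and 6.36 on the log2 scale. Inhbb, Acvr1b and Acvr2b fell by 0.99 or less, and Fst and Smad7 did not pass the test. In scrambled cells 39.1% of all tested genes were called with retinoic acid (22.4% higher and 16.7% lower), against 8 of the 10 Nodal and activin genes, all lower. In KD1 cells 50.8% of all tested genes were called (29.4% higher and 21.4% lower), against 9 of the 10, of which 1 was higher and 8 lower. The median change of the 10 genes was -2.48 in scrambled and -2.87 in KD1 cells, beside 0.06 over all tested genes in both.

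Nodal stood at 6.39 and 6.23 in scrambled cells after retinoic acid and at 5.23, 4.96, 5.40 and 5.52 in KD1 cells, against 8.55 or more on every ESC array. It fell by -3.98 ± 0.28 in scrambled cells (adjusted p = 1.9e-06) and by -4.22 ± 0.25 in KD1 cells (adjusted p = 1.79e-07). Gdf3 was at 5.44 and 5.52 in scrambled and at 4.15, 4.46, 5.22 and 5.11 in KD1 cells. The Gdf3 fall was -4.91 ± 0.30 in scrambled (adjusted p = 7.35e-07) and -5.26 ± 0.26 in KD1 cells (adjusted p = 7.37e-08), and no retinoic acid array came near the ESC range. Inhbb was at 4.18 and 4.53 in scrambled and at 4.36, 4.30, 4.38 and 4.58 in KD1 cells. On 5 of these 6 arrays Inhbb lay at or below the level that counted as dim, which was the 40th percentile of the named genes on each array (4.46 to 4.63), so its falls of -0.86 ± 0.19 (adjusted p = 0.00356) and -1.53 ± 0.16 (adjusted p = 1.46e-05) end near background.

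Tdgf1 stood at 5.64 and 6.10 in scrambled cells after retinoic acid and at 4.20, 3.26, 5.89 and 5.48 in KD1 cells. KD1 replicates 1 and 2 were dim for Tdgf1, and replicates 3 and 4 lay near the scrambled arrays. The change was -6.31 ± 0.64 in scrambled (adjusted p = 2.05e-05) and -7.87 ± 0.56 in KD1 cells (adjusted p = 7.35e-07). The receptor gene Acvr1b was at 7.04 and 7.01 in scrambled and at 7.09, 7.38, 7.32 and 7.07 in KD1 cells, below every ESC array, with falls of -0.99 ± 0.29 (adjusted p = 0.0197) and -1.19 ± 0.26 (adjusted p = 0.00224). The scrambled call of Acvr1b was lost without scrambled ESC replicate 1 (adjusted p = 0.119) or either scrambled array after retinoic acid (adjusted p = 0.0762 and 0.0897). Acvr2b was at 7.29 and 7.20 in scrambled and at 6.60, 6.80, 6.69 and 6.40 in KD1 cells. Its falls were -0.53 ± 0.19 in scrambled cells (adjusted p = 0.0468), a call lost under 11 alternatives (-0.33, adjusted p = 0.310 without scrambled ESC replicate 2), and -0.89 ± 0.17 in KD1 cells (adjusted p = 0.000891).

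Lefty1 was at 4.38 and 4.62 in scrambled and at 4.05, 4.07, 4.38 and 4.38 in KD1 cells after retinoic acid, and Lefty2 at 3.62 and 3.84 and at 3.19, 3.82, 3.23 and 3.44. Lefty2 was dim on all 6 of these arrays and Lefty1 on 5 of them, so their falls are differences to a level near background. Lefty1 fell by -6.12 ± 0.28 in scrambled (adjusted p = 9.85e-08) and -4.79 ± 0.24 in KD1 cells (adjusted p = 7.37e-08). For Lefty2 the falls were -6.36 ± 0.32 (adjusted p = 1.97e-07) and -4.96 ± 0.28 (adjusted p = 1.33e-07). Smad7 kept to a narrow range, at 8.03 and 8.27 in scrambled and at 8.20, 8.05, 7.73 and 7.79 in KD1 cells. Its changes of 0.42 ± 0.22 (adjusted p = 0.159) and -0.17 ± 0.19 (adjusted p = 0.470) were not called.

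Fst was the exception. In scrambled cells it stood at 7.44 and 7.60 after retinoic acid, within the range of 7.38 to 7.78 of the scrambled ESC arrays (-0.06 ± 0.26, adjusted p = 0.882). In KD1 cells after retinoic acid it stood at 11.12, 11.30, 11.88 and 11.78, against 7.90 and 7.47 in KD1 ESCs. All 4 arrays lay over 3 log2 units above every other array of the series. Fst rose 14.3-fold with retinoic acid in KD1 cells (3.84 ± 0.23, adjusted p = 2.06e-07).

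**Figure D3:**
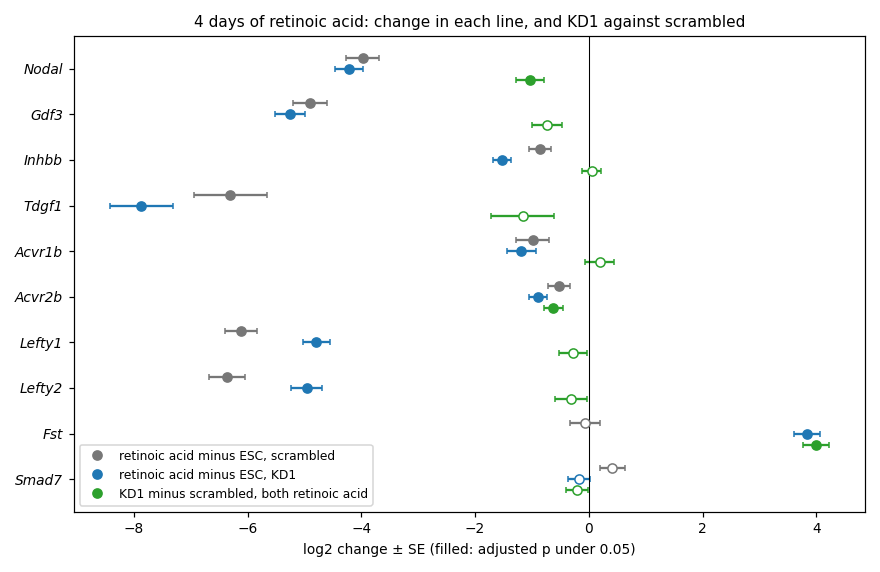
Log2 change ± SE (horizontal axis) of each of the 10 genes with 4 days of retinoic acid in scrambled and in KD1 cells, and the difference between KD1 and scrambled cells after retinoic acid, with filled points for an adjusted p under 0.05. Tdgf1, Lefty1, Lefty2, Gdf3 and Nodal lie far to the left in both lines, and Fst lies at 3.84 for the KD1 change and 4.00 for the KD1 difference but at -0.06 in scrambled cells.

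Promoters were available for 5 of the 10 genes: Nodal, Inhbb, Tdgf1, Acvr1b and Acvr2b. Those of Nodal and Tdgf1 are shown because both genes fell steeply with retinoic acid. Each is the 250 bases before the start site in RefSeq on GRCm38.p6, at chr10:61417722-61417971 on the plus strand for Nodal and at chr9:110946159-110946408 on the minus strand for Tdgf1, written 5′ to 3′ along the gene. Capitals mark matches, on either strand, to the Smad element CAGAC or to the Foxh1 element AATNNACA.
Nodal: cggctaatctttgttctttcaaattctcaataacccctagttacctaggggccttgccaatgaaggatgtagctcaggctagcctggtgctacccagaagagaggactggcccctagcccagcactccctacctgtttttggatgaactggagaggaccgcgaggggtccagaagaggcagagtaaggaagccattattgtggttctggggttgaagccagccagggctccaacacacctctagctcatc
Tdgf1: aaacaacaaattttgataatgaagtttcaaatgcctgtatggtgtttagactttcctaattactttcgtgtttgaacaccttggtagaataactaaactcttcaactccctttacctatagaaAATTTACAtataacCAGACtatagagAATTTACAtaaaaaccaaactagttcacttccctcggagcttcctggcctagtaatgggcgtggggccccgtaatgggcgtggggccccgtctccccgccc
The Tdgf1 window held 1 CAGAC, starting at base -113 from the start site, between 2 copies of AATNNACA starting at -127 and -101, and the motifs did not overlap. The Nodal window held neither. Among 32851 promoter windows of the same length, 42.2% held CAGAC and 10.9% held AATNNACA. Of the other 3 members with a promoter, Acvr2b held 1 CAGAC, starting at base -233, and Inhbb and Acvr1b held neither motif. A match describes the letters in this window and no binding.

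After retinoic acid KD1 and scrambled cells differed mainly in Fst, which was higher in KD1 cells by 4.00 ± 0.23, a 16.0-fold difference (adjusted p = 4.98e-07). Nodal and Acvr2b were lower. In this comparison 22.7% of all tested genes were called, beside 3 of the 10 Nodal and activin genes, whose median change was -0.30 beside -0.019 over all tested genes. The Nodal difference was -1.03 ± 0.25 (adjusted p = 0.010), and all 4 KD1 arrays lay below both scrambled arrays. The Acvr2b difference was -0.62 ± 0.17 (adjusted p = 0.0183), again without overlap. Both calls were lost without scrambled replicate 1 (adjusted p = 0.102 for Nodal and 0.145 for Acvr2b) or scrambled replicate 2 (0.0584 and 0.0861), while the Fst difference was called under every alternative tried.

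The 4 KD1 arrays after retinoic acid were not alike. In Nodal, Gdf3, Inhbb, Tdgf1, Lefty1, Fst and Smad7 replicates 1 and 2 did not overlap with replicates 3 and 4. Smad7 was lower and the others were higher in replicates 3 and 4. The share of all tested genes split in this way was not counted, so the split is given as values only. The difference between the mean of replicates 1 and 2 and that of replicates 3 and 4 was largest for Tdgf1 (1.95), Gdf3 (0.85) and Fst (0.62). Gdf3 was at 4.15 and 4.46 in replicates 1 and 2 and at 5.22 and 5.11 in replicates 3 and 4, and Tdgf1 was at 4.20 and 3.26 against 5.89 and 5.48. The pluripotency gene Nanog, chosen after its values were seen, was split in the same way, at 4.14 and 4.71 against 7.14 and 6.94. Of the other ESC markers Sox2 and Zfp42 were split as well, whereas Pou5f1, Utf1 and Dppa5a overlapped. Over all 4 arrays the difference from scrambled cells was -0.74 ± 0.26 for Gdf3 (adjusted p = 0.0649) and -1.16 ± 0.56 for Tdgf1 (adjusted p = 0.171), and neither was called. With replicates 1 and 2 alone both were called (-1.17, adjusted p = 0.00372 for Gdf3 and -2.14, adjusted p = 0.00212 for Tdgf1), and with replicates 3 and 4 alone they stood at -0.32 and -0.19 (adjusted p = 0.292 and 0.708). With replicates 3 and 4 alone the Nodal difference was -0.85 and was not called (adjusted p = 0.0821), and with replicates 1 and 2 alone the Acvr2b difference was -0.54 and was not called (adjusted p = 0.112). Without KD1 replicate 3, limma called 5 of the 10 genes. The remaining members were not called, with Acvr1b at 0.19 (adjusted p = 0.679), Inhbb at 0.05 (adjusted p = 0.878), Smad7 at -0.20 (adjusted p = 0.519), Lefty1 at -0.28 (adjusted p = 0.477) and Lefty2 at -0.31 (adjusted p = 0.493).

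Markers of extraembryonic endoderm were set beside Fst. All 7 of 7 markers (Gata4, Gata6, Sox17, Dab2, Foxa2, Lama1 and Pdgfra) were called higher in KD1 than in scrambled cells after retinoic acid, with array means of 10.27 to 10.70 against 7.56 and 7.55. Gata4, a transcription factor that specifies this lineage, stood at 6.47 and 6.30 in scrambled cells and between 10.45 and 11.05 in KD1 cells. In undifferentiated cells the array means were 5.74 and 5.46 in scrambled, 6.62 and 6.60 in KD1, and 5.65 and 5.64 in KD2, and 3 of the 7 were called higher in KD1 and 0 in KD2. Fst overlapped between scrambled and KD1 ESCs. With retinoic acid in scrambled cells 7 of the 7 endoderm markers were called higher, at a median change of 1.08. The Fst change in the same comparison was -0.06 and was not called (adjusted p = 0.882 in limma), so the markers also rose where Fst did not. The fibroblast markers did not rise with Fst: after retinoic acid they had array means of 8.29 and 8.90 in scrambled cells and between 7.64 and 8.16 in KD1 cells, with 0 called higher and 2 lower. The 5 neural markers had means of 6.81 and 6.66 in scrambled and between 5.46 and 5.90 in KD1 cells, with 3 called lower, and the array means of the 5 mesoderm and streak markers measured were between 4.26 and 4.78 on all 12 arrays. Of the 5 retinoic acid response markers 3 were called lower in KD1 than in scrambled cells after retinoic acid, and of the 6 ESC markers 2 were called higher and 1 lower. The part of a changed makeup of cell types in these differences was not tested.

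**Figure D4:**
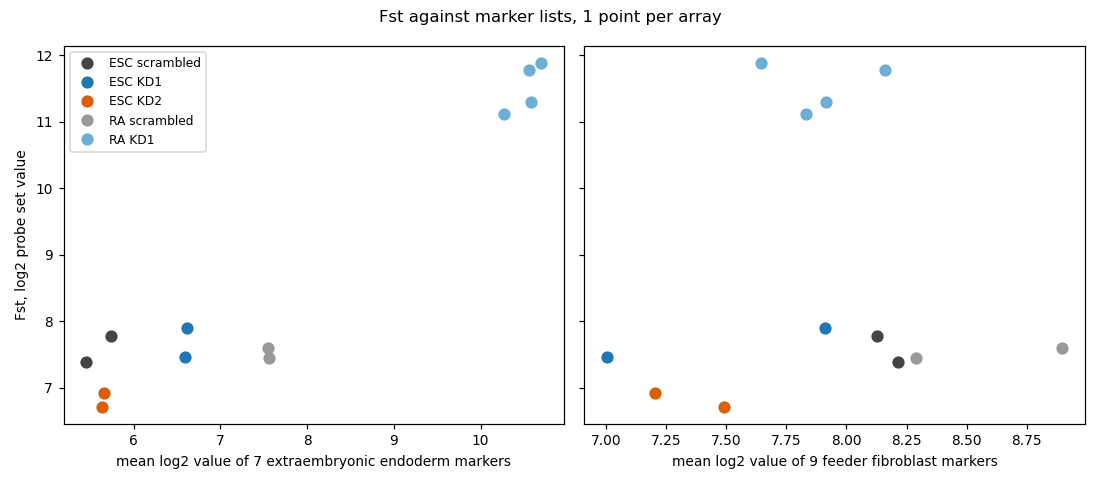
Log2 value of Fst (vertical axis) against the mean log2 value of 7 extraembryonic endoderm markers (left) and of 9 feeder fibroblast markers (right), 1 point per array, coloured by group. The 4 KD1 arrays after retinoic acid stand apart in Fst and in the endoderm markers (10.27 to 10.70), and they lie within the range of the other groups in the fibroblast markers.

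The change with retinoic acid was then compared between KD1 and scrambled cells as an interaction, in which 7.88% of all tested genes were called (4.27% higher and 3.61% lower), against 2 of the 10 Nodal and activin genes, both higher. The median over the 10 was -0.29, beside -0.0095 over all tested genes. Fst differed by 3.90 ± 0.35 (adjusted p = 6.59e-05), and this call was kept under every alternative tried. Lefty1 fell less in KD1 cells, by 1.32 ± 0.36 (adjusted p = 0.0479), from a lower level in ESCs to levels near background in both lines. That call was lost under 14 alternatives (adjusted p from 0.0532 to 0.212), among them leaving out any array used in the comparison other than scrambled ESC replicate 1. Lefty2 differed by 1.40 ± 0.42 without being called (adjusted p = 0.0683), and it was called without either KD2 array (adjusted p = 0.0159), when 4 of the 10 genes were. The remaining 7 genes were not called, from -1.57 ± 0.85 for Tdgf1 (adjusted p = 0.341) to -0.20 for Acvr1b (adjusted p = 0.848). With retinoic acid KD1 replicates 1 and 2 alone the Tdgf1 difference was -2.54 and was called (adjusted p = 0.0138), and with replicates 3 and 4 alone it was -0.59 (adjusted p = 0.424). The Inhbb difference of -0.67 (adjusted p = 0.143) was called without either KD2 array (adjusted p = 0.048).

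Of the 33 tested genes of the wider pathway list, 11 were called higher and 5 lower with retinoic acid in scrambled cells and 14 higher and 4 lower in KD1 cells, at medians of 0.24 and 0.27. All tested genes also had more calls upward, with 22.4% higher and 16.7% lower in scrambled and 29.4% and 21.4% in KD1 cells. In scrambled cells the signal-transducing Smads rose, Smad3 by 2.33 ± 0.27 (adjusted p = 5.16e-05), Smad2 by 1.01 ± 0.15 (adjusted p = 0.000371) and the shared partner Smad4 by 0.97 ± 0.18 (adjusted p = 0.00124). The type II receptor gene Tgfbr2 of the related TGF-beta ligands rose by 0.96 ± 0.23 (adjusted p = 0.00565), a call lost without scrambled replicate 2 after retinoic acid (adjusted p = 0.0611). Foxh1 fell by -3.11 ± 0.22 (adjusted p = 1.88e-06), from 7.21 and 7.57 to 4.15 and 4.41, and Pcsk6, which encodes a protease that cleaves the Nodal precursor, by -1.57 ± 0.26 (adjusted p = 0.000589). Eomes, a target in the early embryo, fell by -1.17 ± 0.40 (adjusted p = 0.0379), and Cfc1, a co-receptor gene related to Tdgf1, by -0.80 ± 0.27 (adjusted p = 0.0371). Both were lost without scrambled ESC replicate 1, at -0.34 each.

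In KD1 cells the list's largest rises with retinoic acid were those of Foxa2 (3.55 ± 0.21), Tgfbr3 (2.45 ± 0.20), Tgfbr2 (2.31 ± 0.20) and the ubiquitin ligase gene Smurf1 (1.68 ± 0.22), and its falls were those of Pcsk6 (-2.51 ± 0.22), Foxh1 (-1.93 ± 0.19), Bambi (-0.91 ± 0.16) and the ubiquitin ligase gene Nedd4l (-0.40 ± 0.15, adjusted p = 0.0479). The Nedd4l call was lost when any of the 6 arrays compared was left out (adjusted p from 0.0723 to 0.173). KD1 and scrambled cells after retinoic acid differed in 9 of the 33 genes, 7 higher and 2 lower in KD1, with a median of 0.04, where 22.7% of all tested genes were called. Foxa2, which is also 1 of the 7 endoderm markers above, was higher by 2.92 ± 0.21 (adjusted p = 2.91e-06), and Tgfbr3, which encodes the co-receptor betaglycan, by 2.01 ± 0.20 (adjusted p = 2.49e-05). Pmepa1, which encodes a membrane protein that holds back Smad2 and Smad3, stood at 6.96 and 7.46 in scrambled and at 9.13, 9.24, 9.20 and 9.30 in KD1 cells, a difference of 2.00 ± 0.17 (adjusted p = 8.28e-06). Tgfbr2 was higher by 1.46 ± 0.20 (adjusted p = 0.00026). Bambi was lower, at 6.95, 6.90, 6.57 and 6.64 in KD1 against 7.84 and 8.01 in scrambled cells (-1.16 ± 0.16, adjusted p = 0.000246), and so was Smad3 (-0.79 ± 0.23, adjusted p = 0.0309), a call lost without either scrambled array or without KD1 replicate 3 or 4 (adjusted p from 0.0753 to 0.257). In the interaction, where 7.88% of all tested genes were called, 5 of the 33 were, all higher, with a median of 0.26: Foxa2 (2.81), Tgfbr3 (2.07), Pmepa1 (1.68), Tgfbr2 (1.34) and Foxh1 (1.17, adjusted p = 0.0308), the last named after its value was seen. The Tgfbr2 call was lost without scrambled ESC replicate 1, KD1 ESC replicate 2 or scrambled replicate 1 after retinoic acid (adjusted p from 0.0722 to 0.0945), and the Foxh1 call was lost when any of 8 arrays was left out (adjusted p from 0.0526 to 0.136).

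**Figure D5:**
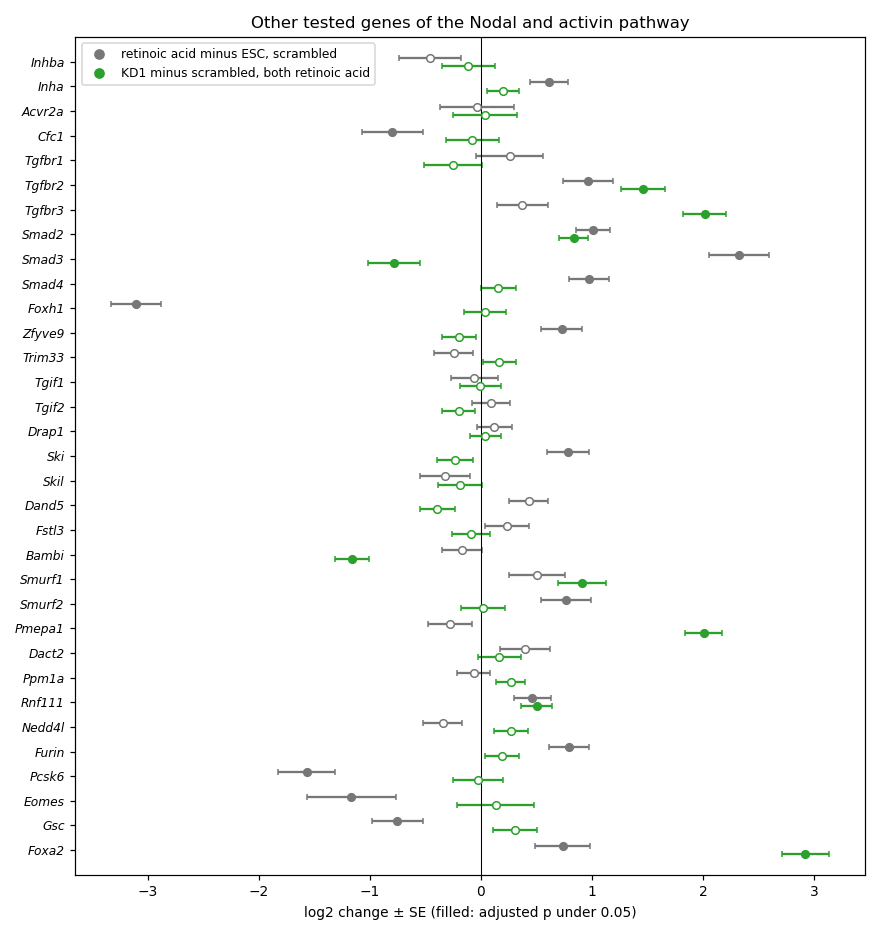
Log2 change ± SE (horizontal axis) of the 33 tested genes of the wider pathway list with retinoic acid in scrambled cells (grey) and between KD1 and scrambled cells after retinoic acid (green), with filled points for an adjusted p under 0.05. Foxh1 lies at -3.11 in grey and near 0 in green, whereas Pmepa1, Tgfbr3 and Foxa2 lie at 2.00, 2.01 and 2.92 in green.

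Genes whose levels ran most like those of the members over the 12 arrays were Zfp367, Tet1 and Fut9 for Nodal (Pearson r of 0.994, 0.991 and 0.989), Slc27a2, Chrna7 and Pde1b for Lefty1 (0.996, 0.989 and 0.982), Trh, Apoe and Slc7a3 for Gdf3 (0.993, 0.992 and 0.992) and Etv5, Lncenc1 and Stmn2 for Tdgf1 (0.989, 0.988 and 0.988). For Fst they were Hs3st1, Gata4 and Frzb (0.990, 0.986 and 0.985). Smad7 had the weakest likeness, with Mras at 0.905. These correlations are a description, and all 12 arrays share the division into undifferentiated and retinoic acid arrays that moved most of these genes. For Fst the division was between the KD1 arrays after retinoic acid and all other arrays, so any gene high in that group alone would look alike. Over the 6 undifferentiated arrays alone the most alike genes were Lfng, Slc27a2 and Syt5 for Lefty1 (0.998, 0.997 and 0.996), Lrig3, Slfn9 and Adam9 for Lefty2 (each 0.992) and Slc10a7 for Nodal (0.994), with Slc27a2 again alike to Lefty1.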

How the data were processed

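RNA was measured on 12 Affymetrix mouse gene arrays, 1 per sample. The authors deposited 1 log2 value per probe set and array, made with RMA per the submitters' processing notes. No version or setting of RMA is given in the sources used here. Of 35556 probe sets, 21789 had 1 gene symbol in the platform's gene table, 1621 had several and 12146 were not listed, and 21698 matched the reference gene table by Entrez identifier. They gave 19938 genes, with the brightest probe set taken for 999 genes. Genes above the 40th percentile of an array's named genes on 2 or more arrays were tested, 12988 in all. The number of arrays limits the precision.

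A group-means model over all 12 arrays was fitted with limma 3.58.1 in R 4.3.3 (7 residual degrees of freedom, prior 4.58) for 7 contrasts, two-sided, with Benjamini-Hochberg adjustment over all tested genes. Groups follow the sample titles. The members, the pathway list, the marker lists (ESC, feeder fibroblast, extraembryonic endoderm, retinoic acid response, neural, mesoderm and streak) and the tests were chosen with earlier results of these data known. The members and Smarcd1 are always named, and of the pathway list at most 4 called genes per contrast and direction, by the largest change. Genes most alike are the 3 with the highest Pearson r. On simulated data, for retinoic acid KD1 against scrambled cells over 12988 genes, a change of 1 log2 unit was recovered for 33 of 50 genes and a change of 2 for 48 of 50, with 12 false calls. The simulated arrays were independent, with the same spread for a gene in all groups. They do not cover the unequal KD2 arrays or the split of the retinoic acid KD1 arrays. Alternatives were no filter, median centring, cyclic loess, weighted arrays, the mean of a gene's probe sets, fits to the compared arrays alone, a replicate block, subsets of arrays and leaving out each array. Promoters are from RefSeq on GRCm38.p6. Of the pathway list, Gdf1 was not analysed here, and Inhbe, Acvr1c, Cer1, Mixl1, Lhx1 and Pcsk5 were too dim to test. Tables were made with pandas 2.3.3 and numpy 2.4.6 on Python 3.11.15, and figures with matplotlib 3.10.9.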

Additional observations from a re-analysis of the deposited data

Results flagged for a closer look

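The change with retinoic acid differed between KD1 and scrambled cells by the interaction in limma for 7 genes, where 7.88% of all tested genes were called. Of the 10 Nodal and activin genes these were Fst, with a difference of 3.90, and Lefty1, with 1.32. Of the wider pathway list they were Foxa2 (2.81), Tgfbr3 (2.07), Pmepa1 (1.68), Tgfbr2 (1.34) and Foxh1 (1.17). After retinoic acid Foxh1 lay near background on 4 of the 6 arrays, and Lefty1 on 5 of them.

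Levels in undifferentiated cells differed between the KD2 and KD1 lines for 2 of the 10 genes, where 2.7% of all tested genes were called. Inhbb was higher in KD2 by 1.04, and Lefty1 was lower by -1.44. These calls were lost under 7 alternatives for Inhbb and 8 for Lefty1. Both tests rest on 2 arrays a line, and 1 of the KD2 arrays went against its label in Smarcd1. No retinoic acid KD1 array of the 10 genes stood apart by a test of the gap to its nearest neighbour, and the groups of 2 arrays were too small for such a test. That test looks for a single array apart from the rest of its group, so it cannot show the split into pairs described above.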

How the results depend on the processing

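Over 70 changes (10 genes, 7 contrasts) and their alternatives, 1520 values were compared with the main value. Of these 1374 kept their direction and side of the threshold, 80 lost the call, 45 gained it and 21 changed sign. None of the 32 called changes changed sign under any alternative, and 17 were called under every alternative. The pooled spread depended on the KD2 arrays, which had a weight of 0.137 each against at least 1.165 for the others. No scaling moved the median of all genes by over 0.1. Cyclic loess moved the split of calls between KD2 and KD1 from 66 higher and 285 lower to 48 and 108. Where an array left a group with 1 sample, that sample was assumed to vary like the other groups. The cause of these differences was not tested.

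In KD1 ESCs 301 genes were called, and 1148 with array weights, 34 with the replicate block, 1057 without either KD2 array, 109 with retinoic acid KD1 arrays 1 and 2 only, 115 with arrays 3 and 4 only, and 26 to 1057 when each array was left out. Of the 10 Nodal and activin genes these gave 4, 0, 4, 1, 1 and 0 to 4, where the 0 of the replicate block had 4 genes at an unadjusted p under 0.05 in limma. In KD2 ESCs 1302 genes were called, and 6 with array weights (941 at an unadjusted p under 0.05), 0 with the compared arrays alone (1288 unadjusted), 675 with the replicate block, 866 with retinoic acid KD1 arrays 1 and 2 only and 333 to 4463 when each array was left out, the highest without the array labelled KD2 replicate 1. Members called were 0 with weights and 0 with the compared arrays alone, and 3 to 7 with each array left out, 3 being without scrambled replicate 2. Between KD2 and KD1 351 genes were called, and 156 with cyclic loess, 0 with weights (458 unadjusted in limma), 0 with the compared arrays alone (782 unadjusted), 29 with the replicate block, 88 and 106 with retinoic acid KD1 arrays 1 and 2 or 3 and 4, and 4 to 4550 when each array was left out, the lowest without KD1 replicate 2 and the highest without the array labelled KD2 replicate 1. Members called were 1 with cyclic loess, 0 with the other 5 of these settings (6 at an unadjusted p under 0.05 with the replicate block), and 0 to 8 with each array left out. With retinoic acid in scrambled cells 5079 genes were called, and 3341 (without retinoic acid scrambled replicate 2) to 7074 with each array left out. After retinoic acid 2942 genes were called between KD1 and scrambled cells, and 4988 with weights, 4734 with the compared arrays alone, 1619 with the replicate block, 4821 without either KD2 array, 1778 with KD1 arrays 1 and 2 only, and 1526 (without scrambled replicate 1) to 4821 with each array left out, with 1 to 5 members. In the interaction 1024 genes were called, and 2548 with weights, 2399 with the compared arrays alone, 447 with the replicate block, 2399 without either KD2 array, 569 with KD1 arrays 1 and 2 only and 456 (without retinoic acid scrambled replicate 2) to 2399 with each array left out. Interaction members called were 1 without a filter, 1 with cyclic loess, 4 with weights, 4 with the compared arrays alone, 4 without either KD2 array, 1 with KD1 arrays 3 and 4 only, and 1 to 4 with each array left out.

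None of the changes that reversed was called in the main analysis, but some ends of the ranges below were, all of them with 1 KD2 array left out: Acvr1b at 0.84 in KD2 ESCs, and Nodal at -0.94, Acvr1b at -0.65 and Smarcd1 at -0.61 and 0.80 between KD2 and KD1. In KD2 ESCs Tdgf1 was 0.084 with cyclic loess, 0.015 with median centring and -0.27 to 0.26 with each array left out, and Acvr1b was -0.25 to 0.84. In KD1 ESCs Fst was -0.12 to 0.31. Between KD2 and KD1, Nodal was -0.94 to 0.086, Acvr1b -0.65 to 0.45 and Smarcd1 -0.61 to 0.80. With retinoic acid, Smarcd1 in scrambled cells was -0.044 with cyclic loess, -0.018 with median centring and -0.037 to 0.17 with each array left out, and Fst was -0.26 to 0.14. Smad7 in KD1 cells was 0.0079 with the replicate block and with KD1 arrays 1 and 2 only, and -0.39 to 0.039 with each array left out. Inhbb after retinoic acid was -0.024 with the replicate block and with KD1 arrays 1 and 2 only, and -0.12 to 0.23 with each array left out. In the interaction Gdf3 was 0.078 with KD1 arrays 3 and 4 only, and Acvr1b was -0.43 to 0.020. The labels do not say that equal replicate numbers mark shared cultures, and deviations of same-numbered arrays correlated between -0.183 and 0.243, so the replicate block, which drops retinoic acid KD1 arrays 3 and 4, is an alternative only. With that block the KD1 ESC calls of Lefty1 and Lefty2 had adjusted p of 0.0558 and 0.0952, the KD2 call of Acvr2b 0.0667, and the interaction of Tdgf1 was called at -2.54 (0.0207).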
